A study of Mus musculus with 16 samples.

Results

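Integrin subunits and focal adhesion genes were followed on 16 Illumina Mouse 8 arrays of primary mammary fibroblasts. The genes were chosen by symbol. They were every alpha or beta integrin subunit whose symbol fitted a fixed pattern, plus 20 named adaptors and kinases of focal adhesions. This gave 41 of the 18132 genes measured, of which 14 were alpha subunits, 8 were beta subunits and 19 were adaptors or kinases. TNS1, the tensin among the named symbols, was not analysed here.

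Fibroblasts were isolated from the inguinal mammary glands of 129S6 females, 8 to 10 weeks old, that were labelled MEKK1+/+ or MEKK1-/-, which lack the kinase encoded by MAP3K1. Cultures of each genotype were kept in growth medium with serum (untreated) or were given conditioned medium (CM), which is the same medium harvested from MDA-MB231 cells, a human breast cancer line, for 8 h. Each of the 4 combinations had 4 arrays. The methods give 3 mice per genotype and 4 culture replicates, so cultures of a group are not all from separate mice, and p values here measure the spread between cultures. No source used here states which cells were left in the primary cultures besides fibroblasts.

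Integrins are heterodimers of an alpha and a beta subunit that bind extracellular matrix outside the cell. Inside, talin and kindlin (FERMT2) bind the beta tail, ILK joins PINCH (LIMS1, LIMS2) and parvin (PARVA) in a scaffold, and vinculin (VCL), zyxin (ZYX) and paxillin (PXN) couple the cluster to actin. FAK (PTK2) and SRC phosphorylate the docking proteins BCAR1 and NEDD9, which recruit CRK and so connect adhesion to cell migration. Fibroblasts use these sites to pull on matrix, and VCL and other cytoskeletal genes are known targets of SRF, which binds the CArG box.

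Promoters of the members were read from RefSeq on GRCm38.p6, where 30 of the 41 members matched by symbol, with 37 promoters of 250 bases before to 50 bases after a start site. The CArG box was matched in 3 of these 37 promoters (8.11%), against 1.63% of all 32851 promoters. Both strands were searched throughout. The TEAD motif GGAATG was in 2 (5.41%, against 14.7%), the AP-1 motif TGANTCA in 4 (10.8%, against 7.81%) and the NF-kB consensus in 1 (2.7%, against 4.51%). The CArG boxes lay in VCL, in FERMT2 and in a promoter of ITGB6, at 227, 204 and 50 bases before the start. In the main fit VCL and FERMT2 did not pass the threshold with CM, and ITGB6 was above background on 0 arrays. ITGA7, PXN and LIMS2 were among the members without a matched promoter. Shown here are the sequences before the start of NEDD9, which had the largest change of all members, and of VCL and FERMT2. The last 2 held a CArG box and were lower on the CM arrays of MEKK1-/- cells without overlap. A 30-base stretch of ILK, which passed the threshold in both genotypes, is shown with them. Capitals mark the CArG box in FERMT2 and the CArG box and then the TEAD motif in VCL. In ILK they mark a pair of overlapping NF-kB matches on opposite strands. These lay 48 and 47 bases before the start of 1 of its 2 promoters, and the other ILK promoter held 0 matches of any searched motif. No searched motif was found in the NEDD9 window, nor in those of TES and ITGA2B, which are not shown. TES was also lower with CM in MEKK1-/- cells without overlap, and ITGA2B passed the threshold in both genotypes. A match is a description of the letters only.
NEDD9, chr13:41359002-41359251, minus strand: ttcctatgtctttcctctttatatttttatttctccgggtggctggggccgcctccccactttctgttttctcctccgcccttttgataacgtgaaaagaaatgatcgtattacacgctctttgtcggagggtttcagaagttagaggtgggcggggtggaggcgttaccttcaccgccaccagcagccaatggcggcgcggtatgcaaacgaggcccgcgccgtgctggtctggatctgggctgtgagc
VCL, chr14:20929148-20929397, plus strand: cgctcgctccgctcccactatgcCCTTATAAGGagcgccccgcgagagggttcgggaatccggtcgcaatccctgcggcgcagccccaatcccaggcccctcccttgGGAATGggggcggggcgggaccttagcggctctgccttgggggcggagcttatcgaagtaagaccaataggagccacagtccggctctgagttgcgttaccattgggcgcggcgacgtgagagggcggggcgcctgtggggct
FERMT2, chr14:45530066-45530315, minus strand: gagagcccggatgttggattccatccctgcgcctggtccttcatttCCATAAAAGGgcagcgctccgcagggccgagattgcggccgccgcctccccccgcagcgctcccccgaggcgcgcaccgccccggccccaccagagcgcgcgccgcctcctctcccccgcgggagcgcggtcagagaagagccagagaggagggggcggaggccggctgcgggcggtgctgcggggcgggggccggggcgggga
ILK, chr7:105736668-105736697, plus strand: cggccggacGGGAGTTCCCCcggagaaggc

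All levels below are log2 intensities after quantile normalization between arrays, and a difference of 1 is a 2-fold difference. A gene was called above background on an array when it exceeded the 99th percentile of 1075 olfactory receptor genes there. By this measure 21 of 41 members (51.2%) were above background on all 16 arrays, against 38.2% of all genes, 10 were on some arrays and 10 on none. The 21 were 8 integrin subunits (ITGA1, ITGA5, ITGA7, ITGA11, ITGAV, ITGB1, ITGB4 and ITGB5) and 13 adaptors and kinases (BCAR1, CAV1, CRK, FERMT2, ILK, LIMS2, NEDD9, PARVA, PTK2, SRC, TES, VCL and ZYX). Levels of different genes rest on different probes and were not ranked.

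The fibroblast markers were measured clearly, with 13 or 14 of 14 above background on all arrays of each group. The array medians as deposited ran from 114 to 170.1. The MAP3K1 probe averaged 7.71 ± 0.19 (SD, n = 4) on untreated arrays labelled MEKK1+/+ and 8.24 ± 0.15 on those labelled MEKK1-/-, so it was not lower in the second. Where it lies relative to the deletion is not given in the sources used here, and the genotypes rest on the labels. The 2 arrays labelled MEKK1-/- and numbered 1 stood apart: the mean level of 10 epithelial markers was 9.07 on both, against 7.03 to 7.51 on the other 14 arrays. Macrophage markers were also present, with 11 of 20 above background on all 16 arrays. In such cultures, fewer cells of a type and less RNA per cell cannot be told apart.

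The integrin subunits above background included those of the main fibroblast matrix receptors. ITGB5, a partner of ITGAV in a vitronectin receptor, averaged 12.75 ± 0.14 on untreated MEKK1+/+ arrays, 12.65 ± 0.16 with CM, 12.83 ± 0.14 on untreated MEKK1-/- arrays and 12.74 ± 0.03 with CM (SD, n = 4 each). ITGB1, the common beta subunit of collagen, fibronectin and laminin receptors, averaged 9.04 ± 0.15, 9.02 ± 0.23, 9.18 ± 0.10 and 9.20 ± 0.07 in the same order. Their largest CM response in size was -0.10 (95% interval -0.29 to 0.10), for ITGB5 in MEKK1+/+ cells. ITGAV averaged 8.75 ± 0.25, 8.94 ± 0.26, 8.71 ± 0.28 and 8.91 ± 0.31, and ITGA1, a collagen receptor subunit, 7.97 ± 0.17, 7.90 ± 0.11, 7.92 ± 0.19 and 7.77 ± 0.21. The groups of these 4 genes overlapped in each comparison.

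The leukocyte integrins were at or near background. ITGAM and ITGAX, the alpha subunits of macrophage and dendritic cell integrins, exceeded it on 0 of 16 arrays, as did ITGAE, an alpha subunit of intraepithelial lymphocytes. ITGAM averaged 6.78 ± 0.15 on untreated MEKK1+/+ arrays and 6.79 ± 0.08 on untreated MEKK1-/- arrays. ITGAX averaged 6.91 ± 0.13 and 6.87 ± 0.14 there, and ITGAE 6.90 ± 0.04 and 6.86 ± 0.05. ITGB2, the common partner of ITGAM and ITGAX, exceeded background on 4 arrays, with 7.17 ± 0.08 and 7.19 ± 0.19. ITGB7, the partner of ITGAE and ITGA4 on lymphocytes, did so on 1, with 7.10 ± 0.17 and 7.11 ± 0.09. ITGA4 did so on 0, with 6.68 ± 0.11 and 6.66 ± 0.17. The 20 macrophage markers, by contrast, had a lower mean on untreated MEKK1-/- arrays in 19 cases, with a median difference of -0.84. In limma, 0 of 20 passed the threshold and 10 had an unadjusted p under 0.05, against 9.27% of all genes. Their mean by array overlapped between genotypes, at 8.19 to 9.555 on untreated MEKK1-/- and 8.951 to 10.03 on untreated MEKK1+/+ arrays. Markers of 1 cell type can move together, so the 20 are not separate results. Of 11 pan-leukocyte and lymphocyte markers, 10 were above background on 0 arrays, among them PTPRC, a marker of all leukocytes. The remaining one, CD3E, was above background on 10 arrays. A probe at background does not show that its gene was absent. Of the 20 macrophage markers, 11 were above background on all 16 arrays and 2 on none.

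CM changed 4 of the 41 members in MEKK1+/+ cells (limma, adjusted p under 0.05), 2 of them higher and 2 lower. Of all 18132 genes, 5.01% passed that test, 2.27% higher and 2.75% lower. In cells labelled MEKK1-/- it changed 5 members, 3 higher and 2 lower, against 4.69% of all genes, 2.18% higher and 2.51% lower. Before adjustment, 11 and 10 members had a p under 0.05, beside 16.8% and 16.2% of all genes. NEDD9 and ILK were lower and ITGA7 and ITGA2B were higher in both genotypes, and PXN was higher in MEKK1-/- cells. These 2 comparisons used different arrays, and neither was paired by replicate number. The median change over the members was -0.03 in MEKK1+/+ and -0.04 in MEKK1-/- cells, and over all genes it was -0.0018 and -0.0042.

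NEDD9, the docking protein of FAK and SRC signalling that is tied to migration, had the largest change. On untreated MEKK1+/+ arrays its level was 11.18, 10.80, 10.93 and 10.18, and with CM it was 9.08, 9.34, 9.44 and 9.42. On untreated MEKK1-/- arrays it was 10.38, 10.90, 10.73 and 11.08, and with CM 9.59, 8.73, 9.39 and 9.20. All 8 arrays with CM were below all 8 untreated arrays. The change was -1.45 (SE 0.21, limma adjusted p = 0.00137) in MEKK1+/+ cells, a fall to below the untreated level by 2.73-fold. In MEKK1-/- cells it was -1.54 (SE 0.21, limma adjusted p = 0.000888), or 2.92-fold. The difference between these changes was -0.09, with a 95% interval from -0.73 to 0.54. BCAR1, the related docking protein, differed by -0.11 (SE 0.18) and -0.31 (SE 0.18) and did not pass.

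ILK, the pseudokinase that joins the beta tail to parvin and PINCH, was lower by a smaller amount. Its level was 11.75, 11.68, 11.67 and 11.54 on untreated MEKK1+/+ arrays and 11.19, 11.25, 11.20 and 11.54 with CM. On MEKK1-/- arrays it was 11.96, 11.48, 11.68 and 11.70 untreated and 11.45, 11.20, 11.30 and 11.33 with CM. The groups did not overlap within either genotype, although in MEKK1+/+ cells both replicates numbered 4 lay at 11.54. ILK fell by 0.37 (SE 0.10, limma adjusted p = 0.0417) in MEKK1+/+ and by 0.39 (SE 0.10, limma adjusted p = 0.0346) in MEKK1-/- cells. These calls were close to the threshold. When each of the 16 arrays was left out in turn, ILK passed in 6 fits for MEKK1+/+ and in 10 for MEKK1-/- cells, with a limma adjusted p of up to 0.108 and 0.110, and the arrays whose loss ended the call included 6 of the 8 arrays compared in each genotype.

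VCL, LIMS2 and FERMT2, which hold the adhesion to actin and the ILK scaffold together, were lower on all CM arrays of MEKK1-/- cells, without passing the threshold. VCL was 12.86, 12.77, 13.12 and 13.07 on untreated MEKK1-/- arrays and 12.62, 11.88, 12.57 and 12.39 with CM. FERMT2 was 12.62, 12.25, 12.58 and 12.64 untreated and 12.17, 11.68, 12.20 and 11.97 with CM. LIMS2 was 10.83, 9.55, 9.91 and 9.74 untreated and 9.41, 9.45, 9.25 and 9.49 with CM. The untreated array numbered 1 stood highest for LIMS2. The differences were -0.59 for VCL (SE 0.17, limma adjusted p = 0.0639), -0.52 for FERMT2 (SE 0.16, limma adjusted p = 0.0925) and -0.61 for LIMS2 (SE 0.21, limma adjusted p = 0.131), and LIMS2 differed by -0.34 without the MEKK1-/- arrays numbered 1. With replicate numbers as pairs within genotype, VCL passed in MEKK1-/- cells (limma adjusted p = 0.0163). In MEKK1+/+ cells the groups of all 3 genes overlapped, and the differences were -0.48, -0.36 and -0.44 for VCL, FERMT2 and LIMS2.

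Of the 13 adaptors and kinases above background on all arrays, 11 had a lower mean with CM in MEKK1+/+ cells and 12 in MEKK1-/- cells. NEDD9 and ILK passed in each, beside 10.6% and 9.98% of all genes above background on all arrays. Their median change was -0.17 and -0.25, against -0.0044 and -0.013 for all genes above background on all arrays. PTK2, the gene of FAK, differed by -0.0046 and -0.04 (SE 0.10 each). CAV1, the caveolin coat protein, had a higher mean in both genotypes, at 0.47 (SE 0.18, limma adjusted p = 0.162) and 0.14, and SRC in MEKK1+/+ cells only, at 0.07 (SE 0.14). ZYX differed by -0.10 and -0.19 (SE 0.10 each), and TES, a LIM domain partner of zyxin, by -0.20 and -0.18 (SE 0.07 each).

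ITGA7, the alpha subunit of a laminin receptor best known from muscle, was the integrin with the clearest rise. Its level was 7.60, 7.49, 7.51 and 7.43 on untreated MEKK1+/+ arrays and 7.91, 8.11, 8.04 and 8.47 with CM. On MEKK1-/- arrays it was 7.37, 7.25, 7.42 and 7.52 untreated and 7.85, 7.94, 8.34 and 8.36 with CM. The lowest array with CM (7.85) lay above the highest untreated one (7.60). The rise was 0.63 (SE 0.13, limma adjusted p = 0.00952) in MEKK1+/+ and 0.73 (SE 0.13, limma adjusted p = 0.00361) in MEKK1-/- cells, or 1.54-fold and 1.66-fold. The difference between them was 0.11 (95% interval -0.27 to 0.49). NEDD9 and ITGA7 passed in all 16 fits that left out 1 array, in both genotypes. With the values as deposited, not normalized between arrays, ITGA7 passed in neither genotype (0.31 and 0.70, limma adjusted p = 0.235 and 0.337), and NEDD9 passed in MEKK1+/+ cells (-1.88) but not in MEKK1-/- cells (-1.56, limma adjusted p = 0.111).

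ITGA2B, the alpha subunit of the platelet fibrinogen receptor, rose from a level at background. It was 7.05, 7.12, 7.18 and 7.27 on untreated MEKK1+/+ arrays and 7.58, 7.71, 7.41 and 7.48 with CM. On MEKK1-/- arrays it was 7.13, 7.15, 7.13 and 7.01 untreated and 7.32, 7.76, 7.26 and 7.68 with CM. It exceeded background on 8 of 16 arrays. The rise was 0.39 (SE 0.10, limma adjusted p = 0.0398) and 0.40 (SE 0.10, limma adjusted p = 0.0392). It passed in 9 and 8 of the 16 fits without 1 array, with an adjusted p of up to 0.108 and 0.131 in limma. Of 4 platelet and megakaryocyte markers, 0 passed in limma with CM in either genotype, and 0 and 1 had an unadjusted p under 0.05. ITGB3, the partner subunit, differed by 0.03 and -0.08 (SE 0.09 each).

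PXN, the scaffold that FAK phosphorylates, was also close to background. It was 7.28, 7.28, 7.11 and 7.27 on untreated MEKK1-/- arrays and 7.33, 7.46, 7.52 and 7.67 with CM, and the groups did not overlap. The rise was 0.26 (SE 0.07, limma adjusted p = 0.0363), and with replicate numbers as pairs it no longer passed (limma adjusted p = 0.0582). It passed in 10 of the 16 fits without 1 array. In MEKK1+/+ cells PXN was 7.20, 7.35, 7.27 and 7.29 untreated and 7.51, 7.45, 7.44 and 7.47 with CM, a difference of 0.19 (SE 0.07, limma adjusted p = 0.126).

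ITGA5, the fibronectin receptor alpha subunit, did not pass in MEKK1+/+ cells. It was 11.48, 10.84, 10.77 and 10.82 untreated and 11.45, 11.88, 11.56 and 11.53 with CM. The untreated array numbered 1 lay within the CM arrays, and the difference was 0.63 (SE 0.19, limma adjusted p = 0.0692). Without that array it was 0.79 and passed (limma adjusted p = 0.0208), as it did without the untreated MEKK1-/- array numbered 2 (limma adjusted p = 0.0466). ITGA5 passed in only these 2 of the 16 fits without 1 array, with a limma adjusted p of up to 0.192. It also passed with only genes above the median level (limma adjusted p = 0.0419) and with array weights (limma adjusted p = 0.0334). With replicate numbers as pairs within genotype it passed as well (limma adjusted p = 0.0283). Counting the fits without 1 array, it passed in 6 alternatives and did not pass in 24. Apart from those fits, the smallest difference was 0.21 and the highest limma adjusted p was 0.525. In MEKK1-/- cells the difference was 0.22 (SE 0.19). ITGA9, a tenascin and osteopontin receptor subunit, differed by 0.30 (SE 0.10, limma adjusted p = 0.104) and 0.22 (SE 0.10). For all non-overlapping groups the exact permutation test of 4 arrays against 4 gave p = 0.0286, 2-sided, the smallest it can give. Groups did not overlap for 6 members in MEKK1+/+ cells, against 9.7% of all genes, and for 9 in MEKK1-/- cells, against 10.4%.

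Markers of other cell types gave no calls in these comparisons: with CM, 0 of 20 macrophage, 0 of 10 epithelial and 0 of 8 endothelial markers passed in limma in either genotype, and 1 macrophage marker had an unadjusted p under 0.05 in MEKK1+/+ cells. In MEKK1-/- cells 0 macrophage markers did so, and of the epithelial and endothelial markers 0 did so in either genotype. Of 14 fibroblast markers, 1 passed in each genotype, the receptor gene PDGFRA, at 0.95 (SE 0.23) and 1.00 (SE 0.23) higher. In limma, 3 of the 14 had an unadjusted p under 0.05 in MEKK1+/+ cells (2 higher) and 6 in MEKK1-/- cells (5 higher). Of all genes, 16.8% and 16.2% did so.

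**Figure D1:**
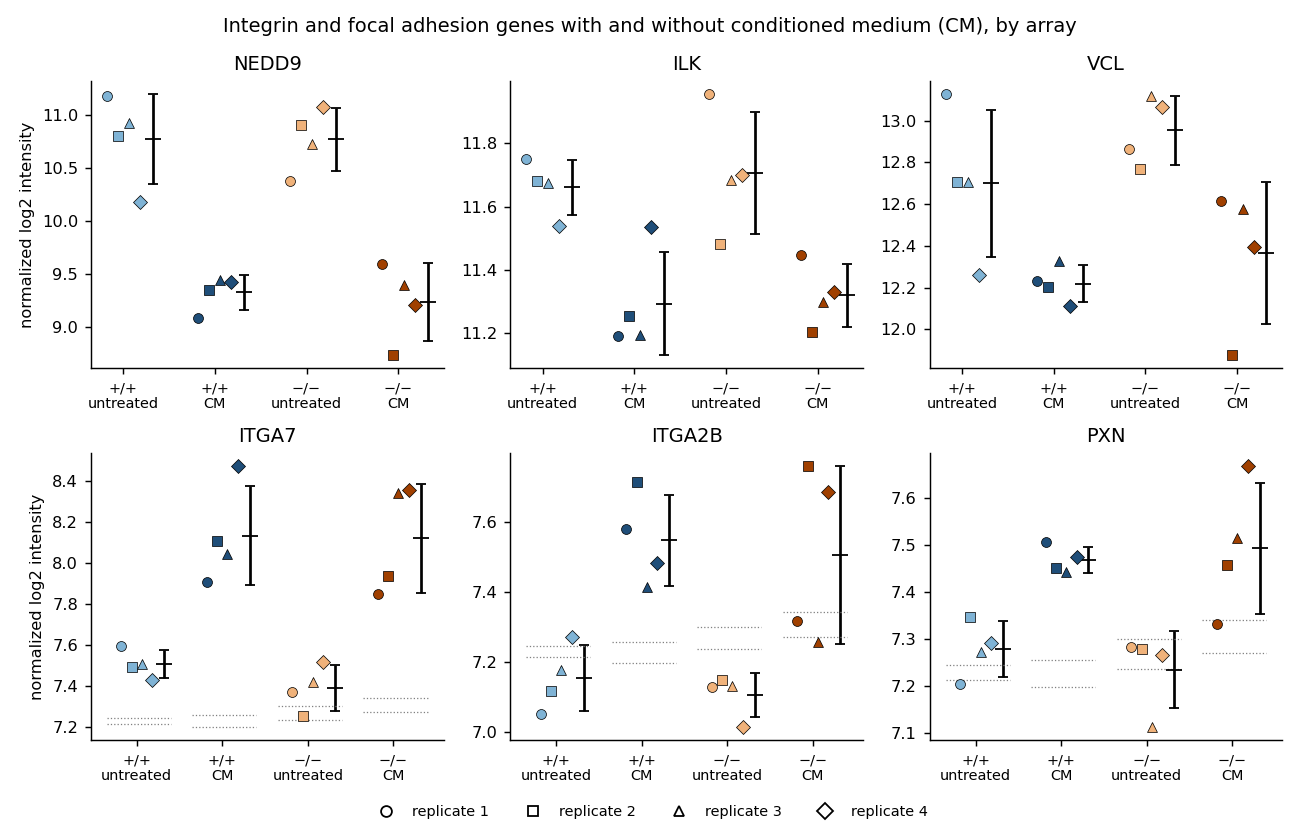
Normalized log2 intensity (y axis) of 6 genes on each of the 16 arrays, grouped by genotype and treatment (x axis). Symbols mark the replicate number, black bars the mean ± SD of 4 arrays, and dotted lines the lowest and highest background level of the group for the 3 genes near it. NEDD9 is lower and ITGA7 higher on every array with CM than on every untreated array.

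**Figure D2:**
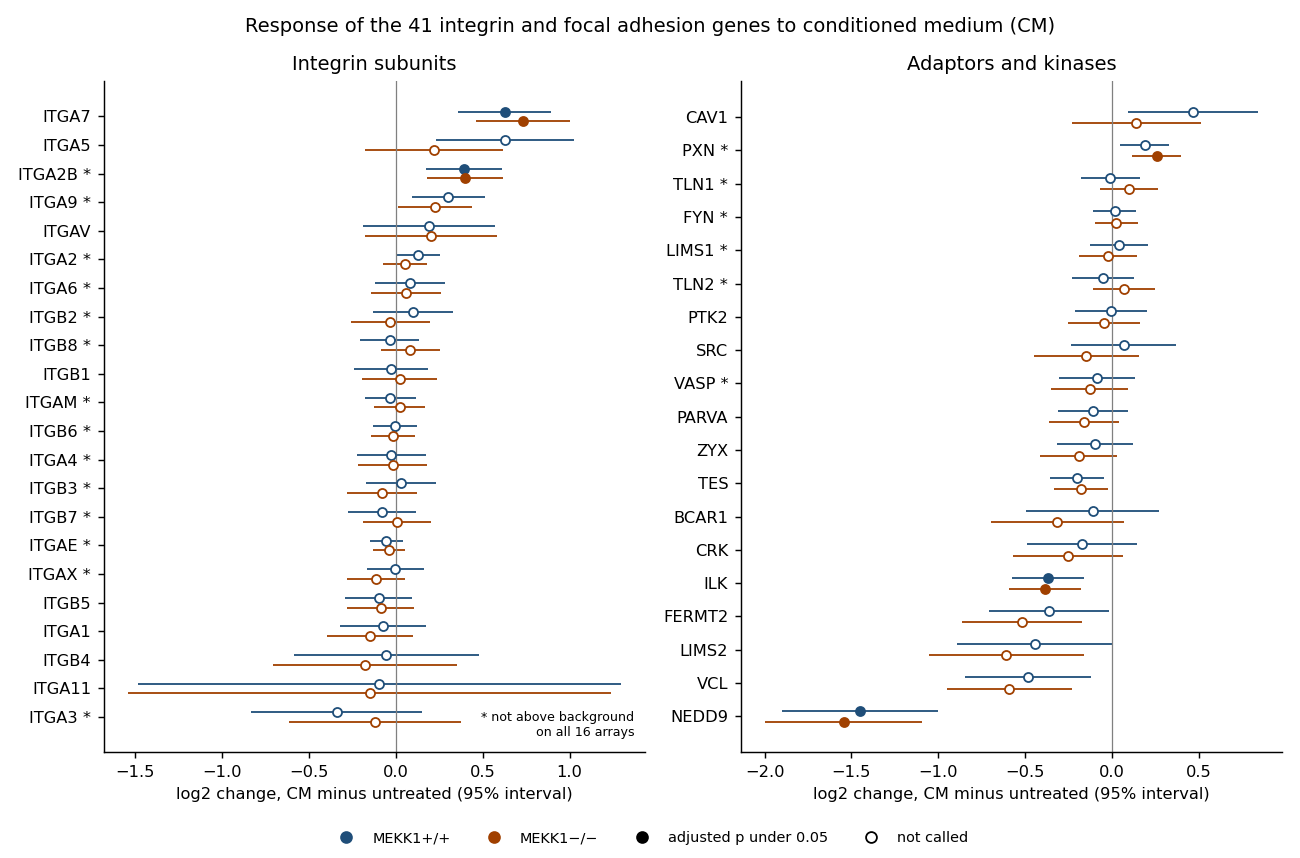
Change on the log2 scale (x axis, CM minus untreated) of the 22 integrin subunits and the 19 adaptors and kinases, with points for the limma estimate and bars for its 95% interval, in MEKK1+/+ (blue) and MEKK1-/- cells (brown). Filled points passed an adjusted p of 0.05, and an asterisk marks genes not above background on all 16 arrays. NEDD9, ILK, ITGA7 and ITGA2B are filled in both genotypes.

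Other adhesion genes were described with 4 lists. Of 34 further focal adhesion adaptors, 0 rose and 4 fell in each genotype. Of all genes, 2.27% rose and 2.75% fell in MEKK1+/+ cells, and 2.18% and 2.51% did so in MEKK1-/- cells. Above background on all arrays were 20 of the 34. Among all 6923 such genes, 305 rose and 427 fell in MEKK1+/+ cells (10.6% in either direction). In MEKK1-/- cells 310 of them rose and 381 fell (9.98%). The median change of the 34 was -0.07 and -0.09, beside -0.0018 and -0.0042 for all genes. FHL2, which binds integrin tails and shuttles to the nucleus, had levels of 11.87, 11.89, 11.74 and 10.66 on untreated MEKK1+/+ arrays and 10.22, 9.94, 10.17 and 10.04 with CM. On MEKK1-/- arrays it was 11.52, 11.65, 12.01 and 12.21 untreated and 10.35, 9.98, 10.49 and 10.43 with CM. No array overlapped between treatments, and FHL2 fell by 1.45 (SE 0.23, limma adjusted p = 0.00246) and by 1.53 (SE 0.23, limma adjusted p = 0.00151). TGFB1I1 (Hic-5), a paxillin relative, fell by 0.90 and 0.81 (SE 0.11 each), and FBLIM1 (migfilin), which links kindlin to filamin, fell by 0.64 and 0.73 (SE 0.09 each).

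Of 34 further kinases, phosphatases and GTPase regulators, 2 rose and 3 fell in MEKK1+/+ cells and 4 rose and 3 fell in MEKK1-/- cells. Of all genes, 5.01% and 4.69% passed in either direction. Of genes above background on all arrays, as 21 of the 34 were, 10.6% and 9.98% passed. LIMK1, which phosphorylates cofilin, rose by 1.02 and 0.76 (SE 0.11 each). TESK1, another cofilin kinase, fell by 0.51 and 0.60 (SE 0.14 each), and its MEKK1+/+ groups overlapped. APBB1IP (RIAM), which recruits talin to integrins, rose by 0.59 and 0.57 (SE 0.14 each). Of 19 caveolae and tetraspanin genes, 1 rose and 1 fell in each genotype, beside the same 5.01% and 4.69% of all genes, or 10.6% and 9.98% of genes above background on all arrays. CD82, a tetraspanin that associates with integrins, rose by 0.89 and 0.87 (SE 0.18 each), and PRKCDBP (cavin-3), a caveolar coat protein, fell by 0.98 and 0.88 (SE 0.14 each). Of 26 matrix ligands of integrins, 0 passed in MEKK1-/- cells in limma, where 5 had an unadjusted p under 0.05.

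**Figure D3:**
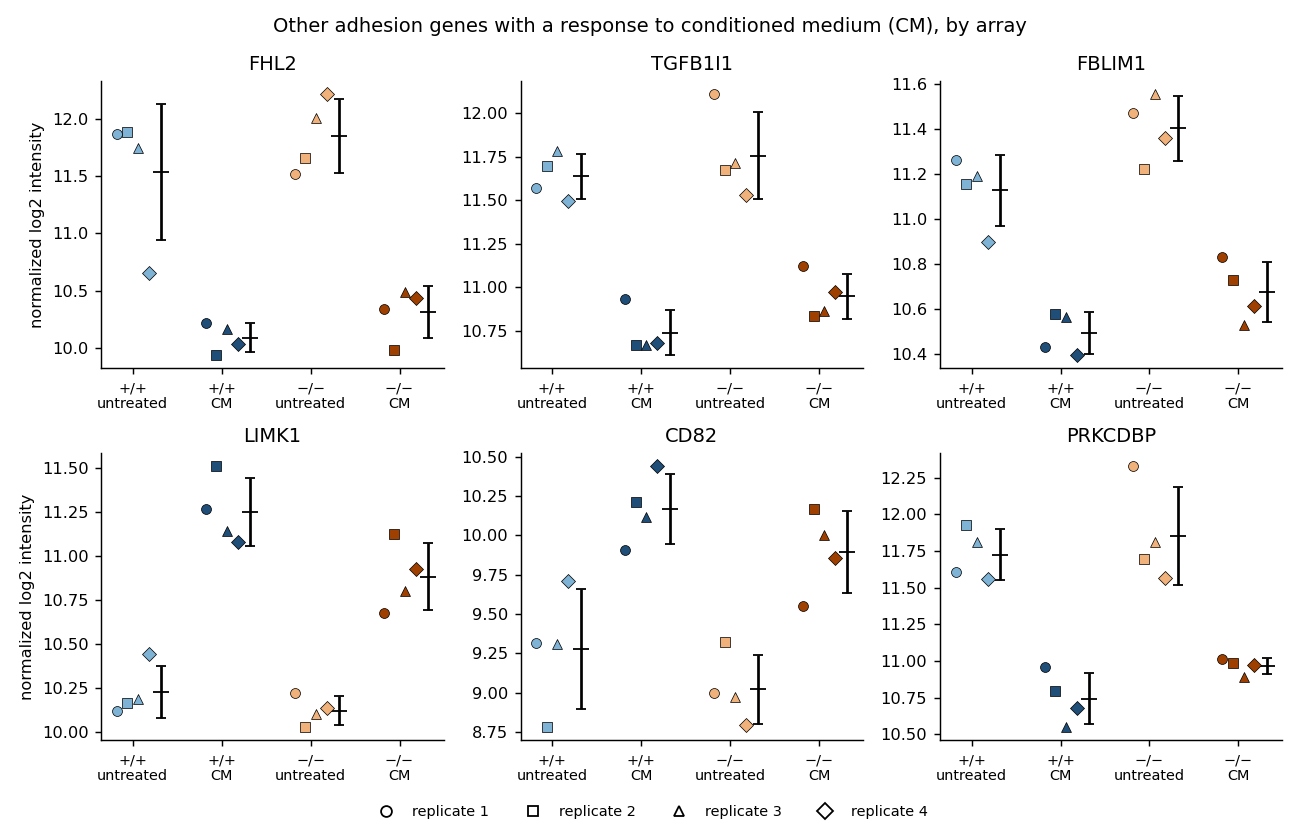
Normalized log2 intensity (y axis) of 6 adhesion genes outside the 41 on each of the 16 arrays, grouped by genotype and treatment (x axis), with symbols for the replicate number and bars for the mean ± SD of 4 arrays. FHL2, TGFB1I1, FBLIM1 and PRKCDBP are lower and LIMK1 and CD82 higher with CM in both genotypes.

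Between genotypes, 0 of 41 members differed in untreated cells in limma, where 0% of all genes passed, and 3 members had an unadjusted p under 0.05, against 9.27% of all genes. With CM, 0 members differed in limma, against 0.00552% of all genes, and 1 had an unadjusted p under 0.05, against 8.09%. The methods' test on z-scores also called 0 members in both. These comparisons share their arrays with the CM comparisons.

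The 3 members with the smallest p in untreated cells were CAV1, ITGA5 and BCAR1. CAV1 was 11.90, 11.52, 11.49 and 11.28 on MEKK1+/+ arrays and 12.19, 11.56, 12.06 and 12.35 on MEKK1-/- arrays, a difference of 0.49 (SE 0.18, limma adjusted p = 0.486). ITGA5 was 11.67, 10.98, 11.46 and 11.57 on MEKK1-/- arrays, 0.45 above MEKK1+/+ (SE 0.19, limma adjusted p = 0.520). BCAR1 was 9.73, 9.58, 9.63 and 9.58 on MEKK1+/+ arrays and 10.64, 9.89, 9.84 and 9.85 on MEKK1-/- arrays. It was the 1 member without overlap there, against 4.61% of all genes, with a difference of 0.43 (SE 0.18, limma adjusted p = 0.520) that was 0.23 without the MEKK1-/- arrays numbered 1.

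With CM the smallest p were those of ITGA3, a laminin receptor subunit, TLN2, a talin, and ITGAX. ITGA3 was 7.53, 7.14, 7.37 and 7.31 on MEKK1+/+ arrays and 8.62, 7.38, 7.83 and 7.89 on MEKK1-/- arrays, a difference of 0.59 (SE 0.23, limma adjusted p = 0.566) that was 0.37 without the arrays numbered 1. TLN2 and ITGAX differed by 0.16 and -0.15 at background. No member was without overlap, against 4.17% of all genes.

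**Figure D4:**
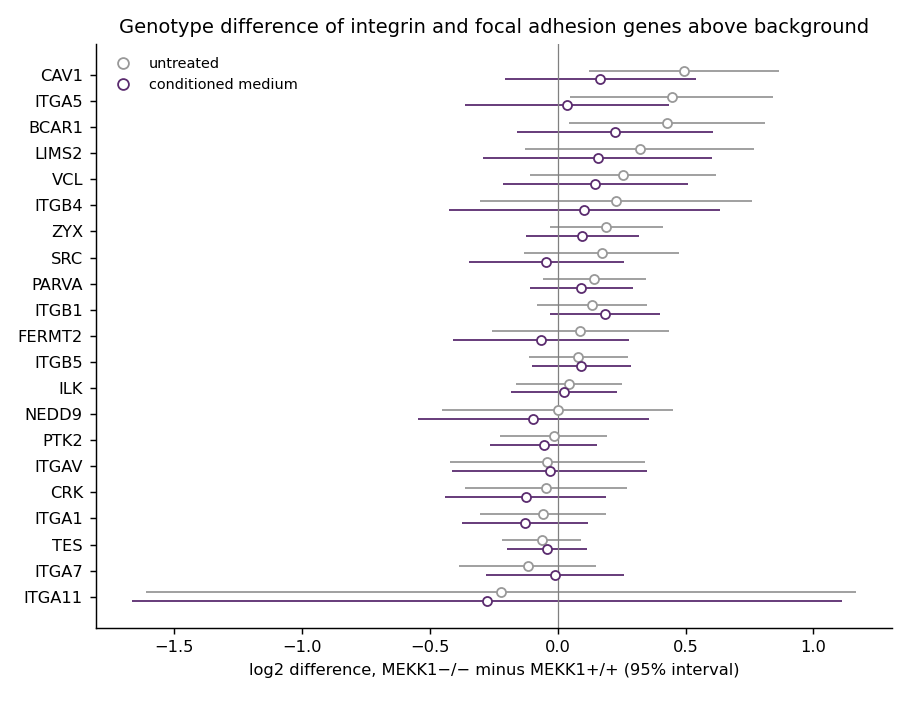
Genotype difference on the log2 scale (x axis, MEKK1-/- minus MEKK1+/+) of the 21 members above background on all 16 arrays, as limma estimates with 95% intervals, untreated (grey) and with CM (purple). No point passed the threshold, and ITGA11 has the widest intervals.

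For the interaction of genotype with CM, 0 of 41 members passed in limma and 0 had an unadjusted p under 0.05, against 0% and 2.61% of all genes. ITGA5, CAV1 and SRC had the smallest p, with interactions of -0.41 (SE 0.26, 95% interval -0.97 to 0.15), -0.33 (SE 0.25, -0.85 to 0.20) and -0.22 (SE 0.20, -0.64 to 0.21). The intervals are wide beside the changes themselves, and a p above the threshold does not show equal responses.

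The 2 MEKK1-/- arrays numbered 1 lay outside the range of the other 14 arrays for ITGA11, ITGB4, ITGA3 and BCAR1. ITGA11, the collagen receptor subunit typical of fibroblasts, was 9.70 on the untreated and 9.84 on the CM array labelled MEKK1-/- and numbered 1, and 11.30 to 12.75 on the other 14. ITGB4, a subunit of the epithelial laminin receptor of hemidesmosomes, was 8.72 and 8.39 on the same 2 arrays and 7.36 to 7.71 on the others. ITGA3 was 8.67 and 8.62 there and 7.14 to 7.98 elsewhere. BCAR1 was 10.64 and 10.19 there, and 9.27 to 9.89 elsewhere. On these arrays the summed intensity of the 10 epithelial markers was 11715 and 10590, against 1330 to 2005 on the others, and the mean of 8 endothelial markers was 7.73 and 7.67, against 7.01 to 7.33. Of these lists, 2 epithelial (KRT5 and ELF5) and 2 endothelial markers (KDR and TIE1) were above background on 0 arrays. Whether epithelial or endothelial cells were present, and what part they had in the levels of the 4 genes, was not tested.

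The ITGA11 genotype difference was -0.22 in untreated cells and -0.28 with CM (SE 0.65 each). Without the 2 arrays it was 0.52 and 0.37 (SE 0.22 each), so its sign turned, and the limma adjusted p was 0.693 and 0.767. The CM responses of NEDD9 and ITGA7 in MEKK1-/- cells were -1.80 and 0.83 without these arrays and still passed.

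**Figure D5:**
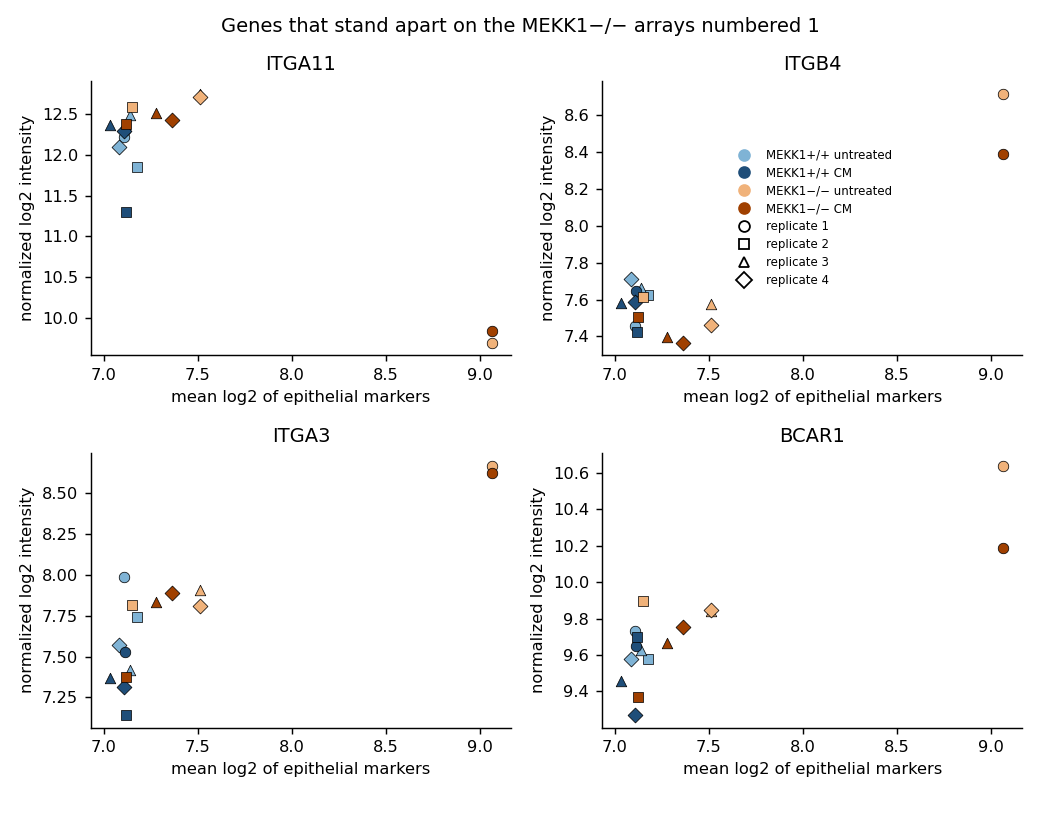
Normalized log2 intensity of ITGA11, ITGB4, ITGA3 and BCAR1 (y axes) against the mean log2 level of 10 epithelial markers (x axes) on 16 arrays, with colour for the group and symbol for the replicate number. The 2 MEKK1-/- arrays numbered 1 lie at 9.07 on the x axis, with the lowest ITGA11 and the highest levels of the other 3 genes.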

How the data were processed

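Each culture was hybridized to its own 1-colour Illumina Mouse 8 array at a core facility. The deposited values are intensities on a linear scale, 1 per gene symbol, which per the labels are normalized. The method, the background treatment and the summary of probes are not given in the sources used here. Because array medians differed, log2 values were quantile normalized between arrays, which sets all arrays to 1 distribution and removes any overall shift. Duplicate arrays were looked for and 0 columns were identical, and within groups the correlation between arrays was 0.979 to 0.996.

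The 4 group means were fitted to all 16 arrays in limma 3.58.1 (lmFit, eBayes; R 4.3.3; 12 residual degrees of freedom), with Benjamini-Hochberg adjustment over all 18132 genes and a threshold of 0.05. Single genes were tested by 2-sided exact permutation of 4 arrays against 4. Background was the 99th percentile of olfactory receptor genes on each array. Precision is limited by the number of arrays. The steps were tested on simulated data.

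Members and gene lists were chosen with earlier results of these data known. Named genes are members past the threshold, members without overlap and a log2 difference of at least 0.5, leukocyte integrins, integrins above background, the 3 members with the smallest p per genotype comparison and up to 3 called genes per list. Other names were chosen after their values were seen. Same-numbered arrays were checked as pairs by correlating, across genes, their deviations from the group means. It was 0.505, 0.403, 0.219 and 0.251 between untreated and CM arrays labelled MEKK1-/-, all above 0.1, and the numbers were taken as pairs there by that limit alone. Replicates 3 and 4 correlated better with another number (0.28 and 0.541). It was -0.0379, 0.485, 0.12 and 0.576 in MEKK1+/+ arrays, which did not pass because of replicate 1. The mean level of the macrophage markers was nonetheless close on same-numbered MEKK1+/+ arrays. For replicates 1 to 4 that mean was 10.03, 8.951, 9.78 and 9.486 untreated and 9.852, 8.916, 9.748 and 9.48 with CM. A failed check therefore does not show that these arrays are unrelated. The main fit used no pairs, and blocks by replicate number were fitted as alternatives. Promoters came from RefSeq, GRCm38.p6.

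The alternatives tried were leaving out each array, replicate blocks, array weights, trended and robust eBayes, fitting only the 2 groups compared, a log2 change of at least 1, the values as deposited, median scaling, z-scores with limma or with the methods' z-test, a floor at 64, a pseudocount of 16 and a filter at the median level. Leaving out both MEKK1-/- arrays numbered 1 was added after seeing the data. Protein sequences and the MDA-MB231 arrays were not analysed here. The call for a list in MEKK1+/+ cells is not reported here.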

Additional observations from a re-analysis of the deposited data

Results flagged for a closer look

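Within the groups of 4 arrays, 19 of the 164 combinations of member and group held an array whose gap to its nearest neighbour was large for the range of the group by Dixon's test. Chance gives about 1 in 20, or 8.2 of 164. All values are normalized log2 intensities, and the causes were not tested. Of the 19, 8 lay on the MEKK1-/- arrays numbered 1. On the untreated one, BCAR1 (10.64), ITGA3 (8.67) and ITGB4 (8.72) were high and ITGA11 (9.70) was low. On the one with CM, ITGB4 (8.39) and PARVA (11.03) were high and ITGA11 (9.84) and ITGA1 (7.46) were low. Epithelial markers were highest on both arrays.

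On the other untreated MEKK1-/- arrays, FERMT2 was low on replicate 2 (12.25), PXN low (7.11) and TES high (11.72) on replicate 3, and ITGA2B (7.01) and ITGB6 (6.76) low on replicate 4. With CM, replicate 2 of MEKK1-/- was low for PTK2 (10.98) and high for SRC (9.68). In MEKK1+/+ cells, ITGA5 was high on untreated replicate 1 (11.48) and FYN low on untreated replicate 4 (6.75), ITGA11 was low on replicate 2 with CM (11.30) and ITGA9 high on replicate 3 with CM (7.82). FYN and ITGB6 were at background on all 16 arrays.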

How the results depend on the processing

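The number of members changed by CM, 4 in MEKK1+/+ and 5 in MEKK1-/- cells, became 2 and 0 with the values as deposited, 8 and 8 with the z-test, and 1 and 1 (NEDD9) with a log2 change of at least 1. In MEKK1-/- cells it became 3 with median scaling and 2 with only the 2 groups compared. With 1 array left out it ran from 2 to 5 in MEKK1+/+ and from 2 to 6 in MEKK1-/- cells. Counts for both genotype comparisons and the interaction were 0 throughout. As deposited, the median gene shifted by -0.284 with CM in MEKK1+/+ cells and by 0.279 between genotypes with CM. There NEDD9 in MEKK1-/- cells was -1.56 (limma adjusted p = 0.111) and ITGA7 was 0.31 and 0.70 (limma adjusted p = 0.235 and 0.337), and ITGAX with CM turned to 0.18, and the interactions of CAV1 and SRC to 0.0020 and 0.14. The cause was not tested.

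The untreated ITGA11 difference turned to 0.0496 with array weights and to 0.52 without the untreated MEKK1-/- array numbered 1 or without both numbered 1. With CM it turned to 0.37 without the treated one or without both. With each array left out in turn it ran from -0.49 to 0.52 in untreated cells and from -0.53 to 0.37 with CM.

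With replicate numbers as a block across all arrays, the counts were 4, 6, 0, 0 and 0 for the 5 comparisons, and VCL was added in MEKK1-/- cells (limma adjusted p = 0.0486). With the block within genotype, 6 members passed in MEKK1+/+ cells, ITGA5 (limma adjusted p = 0.0283) and VCL (limma adjusted p = 0.0393) being added. The replicate numbers had not passed the check as pairs in MEKK1+/+ cells, although macrophage marker means of same-numbered arrays were close there. In MEKK1-/- cells 5 members passed with this block, where VCL was added and PXN lost. Averaging rows of a gene was not run, as no symbol was repeated, and the interaction cannot be fitted to 2 groups. Signals near background, such as those of ITGA2B and PXN, limit what can be read from small changes.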
